A study of Rattus norvegicus with 16 samples.

Results

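The combined action of receptor and agonist was measured in 14 of the 16 array columns of a study of isolated rat pancreatic islets. These are the clusters of hormone-secreting cells of the pancreas. The 14 arrays were chosen by label, except that 2 columns were left out because their values were identical. Islets had been infected with an empty (null) adenovirus or with an adenovirus encoding PPARγ (PPARgamma), each at a multiplicity of 50 particles a cell over 32 h. A further 16 h followed in 0.004% DMSO, the vehicle, or in GW347845, a PPARγ agonist, at 200 nM. The groups were null virus with vehicle (3 arrays), null virus with GW347845 (3), PPARγ virus with vehicle (4) and PPARγ virus with GW347845 (4). All groups therefore carried an adenovirus, and no uninfected islets were analysed here. The labels name no strain, age or sex of the rats, no promoter for the viral gene and no species for its cDNA, and leave open from how many islet preparations the replicates came, so p-values measure the spread between these samples, which may be technical. The columns of replicate 2 of both null virus groups were identical over 15923 probe sets although their labels differ, and both were left out.

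PPARγ is a nuclear receptor that binds DNA as a partner of RXR and activates transcription when a fatty acid derivative or a synthetic agonist occupies its ligand pocket. It is the master regulator of fat cell formation and the target of the glitazone drugs, and its best known target genes serve fatty acid uptake, triglyceride storage and release. The question put to these arrays was whether receptor and agonist together did more, or less, than the product of their separate effects. The interaction was taken per probe set on the log2 scale: the mean response to GW347845 (compound minus vehicle of the same replicate number) in the 4 PPARγ virus pairs, minus the mean response in the 3 null virus pairs. A value of 0 means the same fold response under both viruses, and a positive value a larger or more upward response where the receptor was abundant. Values were taken as log2(intensity + 4.6), so fold changes of dim genes are understated.

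Vehicle and compound arrays of one number deviated from their group means together, with a correlation across probe sets of 0.45 to 0.47 in the null virus pairs and 0.57 to 0.70 in the PPARγ virus pairs. Under the PPARγ virus, replicates 1 and 3 also deviated together (0.18 and 0.33), as did 2 and 4 (0.18 and 0.17), while all other combinations were negative. Deviations from a group mean cancel within the group, so positive same-number values by themselves push the others toward negative values. By the positive combinations the 4 pairs fell into 2 sets. Pparg itself read 25.6 to 51.4 in the null virus arrays and 4593 to 6199 in the PPARγ virus arrays, with an interaction of -0.09 ± 0.22 (SE, adjusted p = 0.973). Receptor RNA thus did not overlap between viruses, and its response to the compound under one virus was not distinguishable from that under the other. The ratio of 3′ over 5′ control probe sets, which tracks RNA integrity, was 7.58 to 14.9 for beta-actin and 8.36 to 18.9 for Gapdh. The 3′ end thus read several-fold higher in every array. The interaction of the ratio was -0.13 for beta-actin (exact two-sided permutation p = 0.400) and -0.31 for Gapdh (exact p = 0.571). With 7 pairs this test gives no p under 0.0571, so it could not call a shift. In null virus pair 3 the Gapdh ratio rose by 0.92 on the log2 scale with compound, against -0.09 and -0.11 in pairs 1 and 4. GW347845 arrays had the larger beta-actin ratio in 4 of 4 PPARγ virus pairs (mean 0.24 on the log2 scale) and in 3 of 3 null virus pairs (0.38). Arrays also differed in non-beta hormone RNA. The summed intensity of Gcg, Sst, Ppy, Pyy and Ghrl was 8518 and 9837 in PPARγ virus vehicle replicates 1 and 3. It was 998.5 and 2448 in replicates 2 and 4, and 4640.4 to 9223.6 in the null virus vehicle arrays. The 2 sets of pairs thus also differed in hormone RNA. In whole islets, fewer cells of a type and less RNA per cell cannot be told apart.

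Receptor and agonist together raised the response of a handful of genes beyond the product of their separate effects. Of 10078 probe sets tested, 5 had an interaction past the threshold (0.0496%), all positive: the fatty acid carrier gene Fabp4, the lipolysis inhibitor gene G0s2, the growth factor binding protein gene Igfbp1, the glutathione transferase gene Gsta4 and an unnamed probe set. No negative interaction passed the limma test, although 268 had an unadjusted p under 0.05, beside 317 positive ones. Together these made 585 (5.8%), where 503.9 would be expected from chance alone. Interactions were otherwise small, with a standard deviation of 0.23 over all probe sets and a median 95% interval that reached 0.36 to either side. An interaction larger than 1 in size was found for 46 probe sets, and 37 of those were positive. Some entered the test only through the arrays in which they were high. Cd36 (1.91), for example, lay above 39.3, the limit for testing, only in the 4 doubly treated arrays. The counts therefore do not test direction. Without the pairing no probe set passed, with 143 at an unadjusted p under 0.05. With the pair as a random block in limma 2 passed, Fabp4 and G0s2.

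Fabp4, the fatty acid-binding protein of adipocytes and macrophages, had the strongest interaction. In null virus vehicle replicates 1, 3 and 4 it read 9.8, 14.9 and 26.3, and in their compound partners 20.3, 21.1 and 43.0. In PPARγ virus vehicle replicates 1 to 4 it read 58.0, 41.2, 25.5 and 68.0, and in their compound partners 585, 781, 260 and 662. Every compound array of the PPARγ virus lay above every other array, while vehicle arrays of the viruses overlapped at their edges. The response within a pair was 0.40 to 0.79 under the null virus and 3.14 to 4.10 under the PPARγ virus. The interaction was 2.81 ± 0.24 (SE, 3 and 4 pairs, adjusted p = 0.00104), a 7.03-fold larger response. The 26.0-fold difference between doubly treated and doubly untreated islets (4.70 on the log2 scale) was made up of 1.28 from the virus in vehicle, 0.60 from the compound under the null virus and 2.81 from the interaction. All but 1 null virus array lay under 39.3, the lower limit for testing, so Fabp4 entered the test through the PPARγ virus arrays.

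G0s2 encodes an inhibitor of adipose triglyceride lipase, the enzyme that starts the breakdown of stored fat. Its null virus vehicle arrays read 254, 228 and 259 (replicates 1, 3 and 4) and their compound partners 268, 255 and 288. The PPARγ virus vehicle arrays read 365, 489, 368 and 509 (replicates 1 to 4) and their compound partners 895, 1256, 737 and 1167. The last group lay above all others without overlap, and the PPARγ virus vehicle arrays lay above all null virus arrays. G0s2 was bright in every array, and its response was 0.07 to 0.16 in the null virus pairs and 1.00 to 1.35 in the PPARγ virus pairs. The interaction was 1.08 ± 0.11 (SE, adjusted p = 0.00464), a 2.11-fold larger response. Of the 1.99 that separated doubly treated from doubly untreated islets on the log2 scale, 0.78 was the virus in vehicle and 0.13 the compound under the null virus.

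Igfbp1, a secreted binding protein for insulin-like growth factors that the liver makes under fasting, had an interaction with opposite directions under the viruses. Null virus vehicle arrays read 50.8, 45.6 and 40.2 and their compound partners 33.9, 33.1 and 35.6, lower in 3 of 3 pairs. PPARγ virus vehicle arrays read 172, 65.4, 111 and 43.3 and their compound partners 280, 133, 315 and 116, higher in 4 of 4 pairs. PPARγ virus arrays of replicates 1 and 3, the pairs rich in non-beta hormone RNA, were higher than those of replicates 2 and 4 in vehicle and in compound alike. The response was 0.69 and 1.47 in the hormone-rich pairs and 0.97 and 1.34 in the hormone-poor pairs. Whether levels or responses are related to the hormone RNA was not tested. The response to the compound was -0.36 ± 0.16 (SE, adjusted p = 1.00) under the null virus and 1.12 ± 0.13 (adjusted p = 0.00289) under the PPARγ virus. The interaction was 1.48 ± 0.21 (SE, adjusted p = 0.0368), or 2.79-fold. The null virus compound arrays all lay under the limit for testing.

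Gsta4, a glutathione transferase that detoxifies aldehydes formed when lipids are oxidised, showed almost no net response under the null virus. It read 46.9, 17.8 and 25.1 in null virus vehicle and 36.5, 26.4 and 33.8 in the compound partners, lower in 1 pair and higher in 2. In PPARγ virus vehicle it read 149, 64.8, 126 and 36.2, and in the compound partners 587, 198, 630.0 and 271. Levels were again higher in replicates 1 and 3. The response was 1.95 and 2.29 in those pairs and 1.54 and 2.76 in replicates 2 and 4. The interaction was 1.96 ± 0.28 (SE, adjusted p = 0.0374), or 3.90-fold. Of its arrays, 1 of 6 under the null virus and 7 of 8 under the PPARγ virus lay above 39.3, so it too entered the test through the PPARγ virus, and its fold rests on null virus values below that limit. Of the 3.55 that separated doubly treated from doubly untreated islets, 1.42 was the virus in vehicle and 0.17 the compound under the null virus.

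The called probe set without a gene name differed from the named genes in that the larger part of its interaction lay under the null virus. It read 49.5, 56.7 and 33.4 in null virus vehicle and 25.5, 30.0 and 10.7 in the compound partners, a response of -0.99. In PPARγ virus vehicle it read 34.5, 32.9, 61.1 and 26.2, and in the compound partners 83.6, 49.4, 112 and 42.3, a response of 0.78 (adjusted p = 0.0647). Neither response passed the test by itself. The interaction was 1.78 ± 0.23 (SE, adjusted p = 0.0303), at intensities near the limit for testing. For all 5 called probe sets the 4 PPARγ virus responses lay above the 3 null virus responses, as they did in 3.19% of all probe sets tested. The exact two-sided permutation test over the 7 pairs gave each its smallest possible p of 0.0571.

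**Figure D1:**
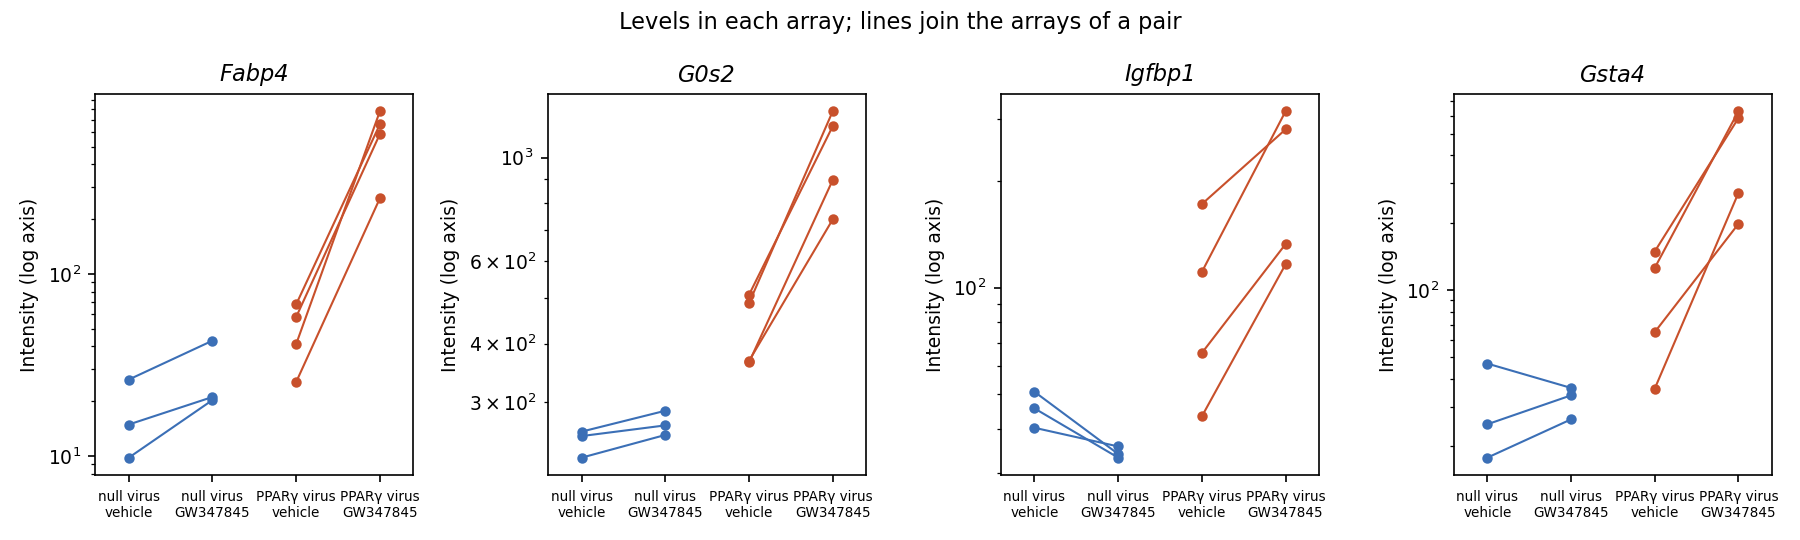
Intensity (log axis) of Fabp4, G0s2, Igfbp1 and Gsta4 in each of the 14 arrays, by virus and treatment; each line joins the vehicle and GW347845 array of a replicate number, blue for the null virus (3 pairs) and red for the PPARγ virus (4 pairs). The red lines climb in 4 of 4 pairs for each gene, while the blue lines are nearly flat for G0s2 and slope downward for Igfbp1.

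Fewer probe sets passed when any 1 pair was left out. Each such fit rests on fewer pairs, and the part of this in the lost calls was not tested. Fabp4 and G0s2 passed in each of the 7 fits that left out 1 pair (adjusted p up to 0.0135 and 0.0498). Igfbp1 passed in 1 of these fits, the one without PPARγ virus replicate 1 (adjusted p = 0.0304, against up to 0.224 in the others). Gsta4 (adjusted p up to 0.172) and the unnamed probe set (up to 0.142) passed only in the fit without PPARγ virus replicate 2. Their interactions stayed positive in all of these fits, at 1.36 to 1.63 for Igfbp1, 1.71 to 2.16 for Gsta4 and 1.62 to 1.86 for the unnamed probe set. With the beta-actin ratio of each pair as a covariate the 4 named genes passed, the unnamed probe set did not (adjusted p = 0.0538), and Cd36 (2.34) and the probe set annotated to Cd36l1 and Cd36 (1.35) passed in addition.

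The stretch just upstream of the gene start is printed for the called genes that the RefSeq promoter table (build GRCr8) holds, and for Pdpn, the named gene with the next smallest interaction p that it holds, so that the windows searched for receptor motifs can be seen. PPARγ and RXR bind a direct repeat of the hexamer AGGTCA with 1 base of any kind between its copies. Both strands of the 250 bases before each start were searched for the hexamer and for the repeat, which contains it, and the hexamer is in capitals. The windows lie at chr13:107335949-107336198 (minus strand) for G0s2, chr14:86261027-86261276 (plus) for Igfbp1, chr8:87947015-87947264 (plus) for Gsta4 and chr5:160918960-160919209 (minus) for Pdpn.
G0s2: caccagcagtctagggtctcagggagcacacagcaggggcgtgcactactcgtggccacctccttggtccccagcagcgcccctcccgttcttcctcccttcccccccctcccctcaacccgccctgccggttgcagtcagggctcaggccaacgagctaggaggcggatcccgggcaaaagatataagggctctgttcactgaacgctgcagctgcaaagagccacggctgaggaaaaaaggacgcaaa
Igfbp1: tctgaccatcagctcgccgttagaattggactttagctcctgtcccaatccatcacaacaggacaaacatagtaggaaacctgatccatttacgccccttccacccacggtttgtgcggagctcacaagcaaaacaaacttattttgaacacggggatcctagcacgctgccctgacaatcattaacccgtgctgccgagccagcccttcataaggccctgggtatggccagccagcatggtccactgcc
Gsta4: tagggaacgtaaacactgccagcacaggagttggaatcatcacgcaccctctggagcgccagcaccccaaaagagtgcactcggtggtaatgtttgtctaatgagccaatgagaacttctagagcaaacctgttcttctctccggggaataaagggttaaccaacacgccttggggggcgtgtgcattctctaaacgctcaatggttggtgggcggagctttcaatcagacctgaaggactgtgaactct
Pdpn: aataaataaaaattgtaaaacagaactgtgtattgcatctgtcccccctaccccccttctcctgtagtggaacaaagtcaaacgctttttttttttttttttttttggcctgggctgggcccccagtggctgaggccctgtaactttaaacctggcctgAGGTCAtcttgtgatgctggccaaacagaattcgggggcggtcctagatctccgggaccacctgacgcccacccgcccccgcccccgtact

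None of the printed windows of G0s2, Igfbp1 and Gsta4 holds the hexamer, and that of Pdpn holds 1, beginning 91 bases before the start. Of all 33469 windows in the table, 14.1% hold the hexamer and 0.0508% the direct repeat. Among the 10 named genes with the smallest p in each direction and Pparg, 16 of 21 had a window. The hexamer was found in 4 of those 17 windows (Pparg has more than 1 start) and the direct repeat in 0. Fabp4 has no entry. These are matches of letters in a short window, and distal sites were not searched.

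The other genes among the 10 most significant positive interactions did not pass the test; of these 6, the genes Gpd1, Dgat2 and Acsl1 serve lipid metabolism. Gpd1, which makes glycerol phosphate for triglyceride, had an interaction of 0.85 ± 0.15 (SE, adjusted p = 0.180). It read 62.7 to 85.4 in all 6 null virus arrays, 441, 188, 347 and 271 in PPARγ virus vehicle, and 761, 464, 599 and 475 in the compound partners. Its difference between the viruses in vehicle was larger (1.97), and the interaction does not count it. The triglyceride synthesis gene Dgat2 had an interaction of 0.63 ± 0.13 (adjusted p = 0.377), on 0.96 from the virus in vehicle. Acsl1, which activates fatty acids, stood at 0.78 ± 0.16 (adjusted p = 0.377), and its other probe set at 0.77. Its levels were 195 to 233 in the null virus arrays, 217 to 264 in PPARγ virus vehicle and 332 to 463 in PPARγ virus with compound, and only the last group stood apart. Mgst1, a membrane glutathione transferase, stood at 0.66 ± 0.14. Pdpn, which encodes the membrane glycoprotein podoplanin, stood at 0.60 ± 0.12, and Arl6ip1, an endoplasmic reticulum membrane protein gene, at 0.65 ± 0.13. Arl6ip1 was lower with compound in 3 of 3 null virus pairs and higher in 4 of 4 PPARγ virus pairs.

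The 10 negative interactions with the smallest p among probe sets of 1 gene did not pass (adjusted p from 0.377 to 0.451). In all 10 the PPARγ virus responses lay below all null virus responses, as in 3.31% of all probe sets. In 9 of the 10 the compound response was positive under the null virus and negative under the PPARγ virus. The choice by small p for a negative interaction itself favours both patterns, and the share of such opposite signs over all probe sets was not taken. Tspan2, a tetraspanin gene, had the largest of these 10 at -1.23 ± 0.31 (SE), with responses of 0.54 under the null virus and -0.69 under the PPARγ virus, but its other probe set gave 0.14. Prmt3, a protein arginine methyltransferase gene, stood at -1.02 ± 0.25, Mindy1 at -0.95 ± 0.21, Dkc1, which encodes the pseudouridine synthase dyskerin, at -0.92 ± 0.23 and Anks4b at -0.79 ± 0.18. Anp32e stood at -0.64 ± 0.15, with 0.00 for its other probe set. Med6, a subunit of the Mediator complex that joins nuclear receptors to RNA polymerase, stood at -0.53 ± 0.13. Eid1 (-0.68 ± 0.15) was 0.58 higher with compound under the null virus and read 536, 814, 501 and 901 in PPARγ virus vehicle against 557, 648, 586 and 691 in the partners, higher in 2 pairs and lower in 2. Gsta1, a relative of Gsta4, stood at -0.50 ± 0.12. It read 212 and 231 in PPARγ virus vehicle replicates 1 and 3 but 854 and 918 in replicates 2 and 4, the reverse of Gsta4. Vash1, which encodes an inhibitor of angiogenesis, stood at -0.42 ± 0.11 and fell with the compound under the PPARγ virus (-0.44, adjusted p = 0.0257), from 274 to 391 in vehicle to 206 to 280 in compound. The negative interaction with the smallest p of all belonged to a probe set without a gene name, singled out after its values were seen, at -1.93 (adjusted p = 0.377); it fell with the compound under the PPARγ virus (-1.68, adjusted p = 0.0262).

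**Figure D2:**
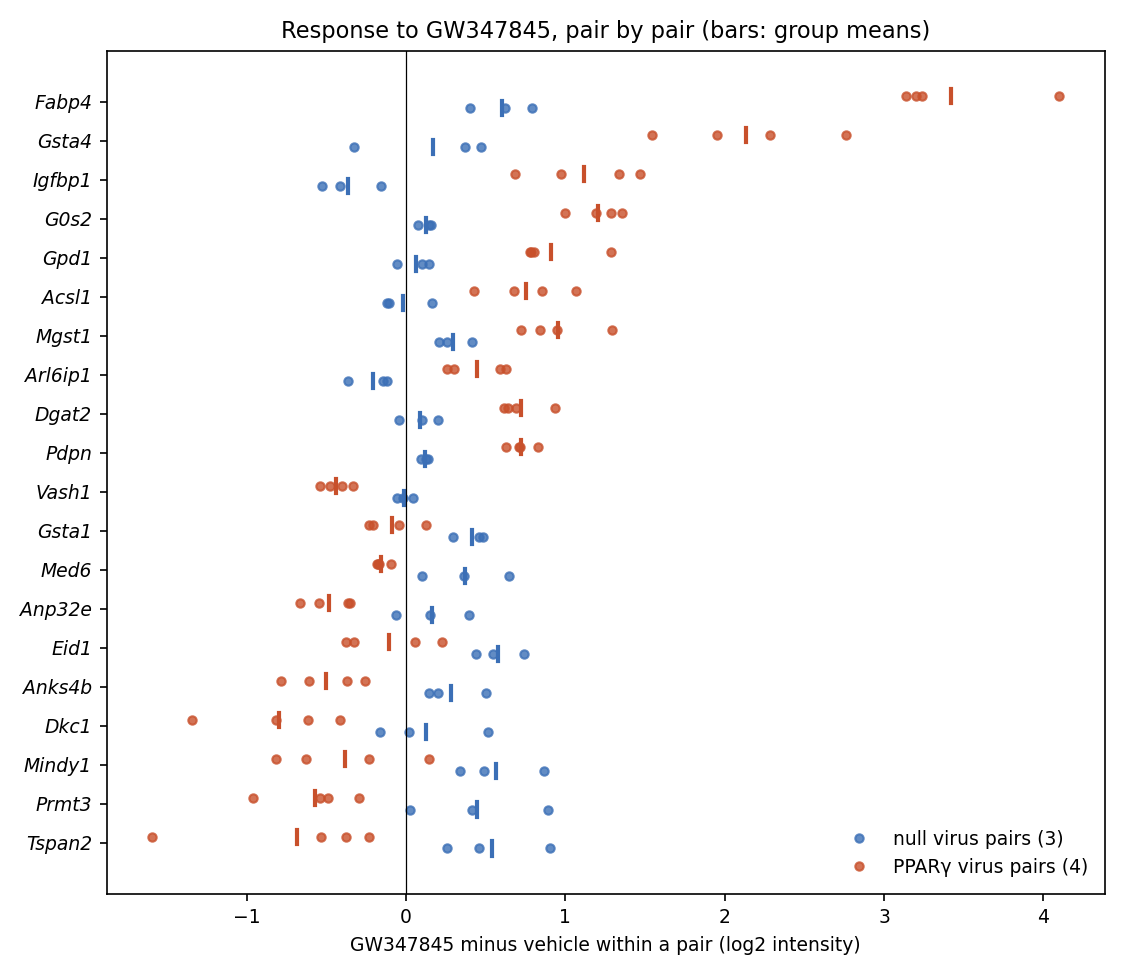
GW347845 minus vehicle within each pair (log2 intensity) for the 10 positive and 10 negative interactions with the smallest p, ordered by interaction; blue points are the 3 null virus pairs, red points the 4 PPARγ virus pairs and bars the group means. Red and blue points do not overlap for any of these genes, which were chosen for their small p, and Fabp4 has 1 red point at 4.10 apart from the other 3.

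The response under the null virus was read for the probe sets called for GW347845 under the PPARγ virus. The null virus pairs share the estimate of spread behind those calls, so the choice was not independent of them: of the 40 calls in either direction, 36, 30 and 29 were made again without null virus replicate 1, 3 or 4. The count was 18 to 22 without any 1 of the PPARγ virus pairs. With pairing, 36 probe sets rose (0.357% of those tested) and 4 fell (0.0397%) under the PPARγ virus, by a median of 0.93 for those that rose. The beta-actin ratio moved with the compound in the same pairs, and its part in these responses was tested only as a covariate, where 35 of the 40 were called again. Under the null virus 0 passed limma, with 411 at an unadjusted p under 0.05. The 36 had a median null virus response of 0.09, from -0.37 to 0.74, against 0.00 over all probe sets. It was above 0 in 27 of 36 (75.0%), against 50.0% of all probe sets tested. In 13 of the 36 it was above 0 in every null virus pair, against 1108 of all 10078 probe sets. In 2 it was below 0 in every null virus pair, against 1159 of all. Of the same 36, 4 had an interaction past the threshold, against 5 of all 10078 (0.0496%). The response that chose the 36 is a component of the interaction, so this count is no test. The largest null virus responses among them were those of Angptl4 (0.74 ± 0.24 SE), the probe set of Cd36l1 and Cd36 (0.73 ± 0.15), Cd36 (0.61 ± 0.35), Fabp4 (0.60 ± 0.18), Hs3st1 (0.52 ± 0.19) and Lpl (0.49 ± 0.19), named after their values were seen. Each of these genes thus had a smaller mean response in the same direction under the null virus, which did not pass the test.

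**Figure D3:**
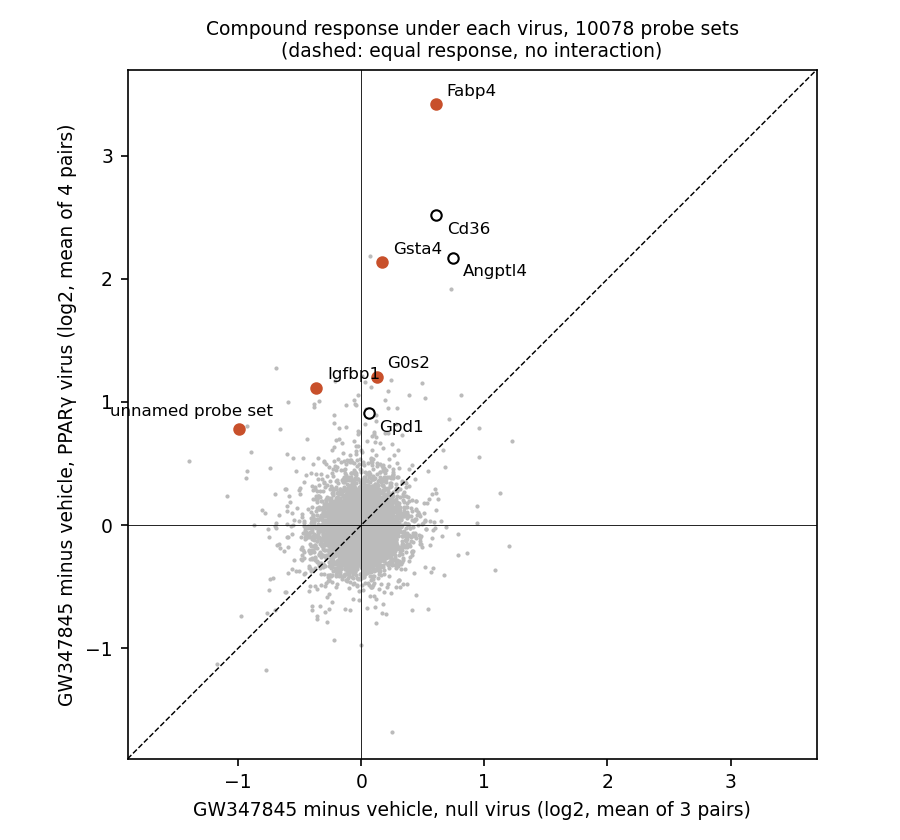
Mean GW347845 response (log2) under the null virus (horizontal, 3 pairs) against that under the PPARγ virus (vertical, 4 pairs) for all tested probe sets; the dashed line marks equal responses, filled points the 5 called interactions and open points 3 target genes that did not pass. Fabp4 lies highest at 3.42 against 0.60, and the unnamed probe set farthest left of the called ones at -0.99.

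PPARγ target and lipid handling genes had mostly positive interactions. Of 47 genes in the list, 33 were tested; 2 passed, Fabp4 and G0s2. The interaction was above 0 in 28 of 33 (84.8%), against 46.3% of all tested probe sets, with a median of 0.37 against -0.02. An unadjusted p under 0.05 was found for 15 positive and 0 negative members, where 3.15% and 2.66% of all probe sets had one in those directions. The 4 PPARγ virus responses lay above all null virus responses in 13 of 33 members, against 3.19% of all probe sets. Among these, Fabp4, Cd36 and Aqp7 entered the test through PPARγ virus arrays in which they were high, so the count is not independent of the filter. The list was drawn up from textbook PPARγ biology with earlier results of these arrays known, so these counts describe the list and do not test it.

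Among uptake genes, Cd36, the fatty acid translocase, read 12.5, 7.6 and 2.6 in null virus vehicle and 18.7, 8.2 and 13.3 in the compound partners. In PPARγ virus vehicle it read 10.8, 19.9, 2.8 and 17.1, and in the compound partners 53.9, 127, 90.8 and 84.4. Only the last group lay above the limit for testing, and its 4 arrays stood clear of the other 10. The interaction was 1.91 ± 0.46 (SE, adjusted p = 0.402). The brighter probe set annotated to both Cd36l1 and Cd36, named after its values were seen, read 144 to 168 in null virus vehicle, 207 to 320 in null virus with compound, 247 to 459 in PPARγ virus vehicle and 1060 to 1488 in PPARγ virus with compound. Its interaction was 1.19 ± 0.19 (adjusted p = 0.0965), the smallest p after the 5 called probe sets. Lpl, the lipase that releases fatty acids from lipoproteins, stood at 0.66 ± 0.25, with overlapping responses. Acsl3, another acyl-CoA synthetase gene, stood at 0.58 ± 0.18.

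Among genes of storage and release, Angptl4, a secreted inhibitor of lipoprotein lipase, had an interaction of 1.43 ± 0.31 (SE, adjusted p = 0.377). It read 83.6, 67.5 and 46.7 in null virus vehicle, 154, 77.6 and 113 in the compound partners, 271, 117, 81.3 and 131 in PPARγ virus vehicle and 722, 890.4, 421 and 581 in the compound partners. All 7 pairs had more Angptl4 with compound, with a mean response of 0.74 under the null virus. Plin2, which coats lipid droplets, stood at 0.44 ± 0.15, and its other probe set at 0.17. The diglyceride acyltransferase gene Dgat1 stood at 0.37 ± 0.13 and the monoglyceride lipase gene Mgll at 0.58 ± 0.21. Aqp7, the glycerol channel of fat cells and islets, stood at 0.90 ± 0.21: all 3 null virus compound arrays read 23.3, under the 29.2 to 34.3 of their partners, while PPARγ virus arrays went from 29.7 to 41.4 in vehicle to 45.8 to 60.1 in compound. All its null virus arrays lay under the limit for testing, so it entered the test through the PPARγ virus, as did Nr1h3. Pdk4, a kinase that holds back pyruvate oxidation, had the same pattern (0.68 ± 0.20), lower with compound in 3 of 3 null virus pairs and higher in 4 of 4 PPARγ virus pairs. Pck1, the gluconeogenic enzyme that also feeds glycerol synthesis in fat, stood at 1.05 ± 0.37 with overlapping responses. The other 18 members lay between -0.46 and 0.51, with 13 above 0 and 5 below.

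Of 8 adipocyte markers 5 were on the array, and Fabp4 was the 1 that reached the limit for testing. Plin1 read 9.8 to 20.4, Lep 0.9 to 3.7, Cfd 16.0 to 38.1 and Lipe 5.6 to 39.1 over the 14 arrays, under the limit of 39.3 in every array. Among untested genes of the target list, Cebpa, a transcription factor gene of fat cell formation, read 1.0 to 3.1. Plin4 of the same list read 20.1 to 80.5 and lay above the limit in 3 arrays, too few to be tested.

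**Figure D4:**
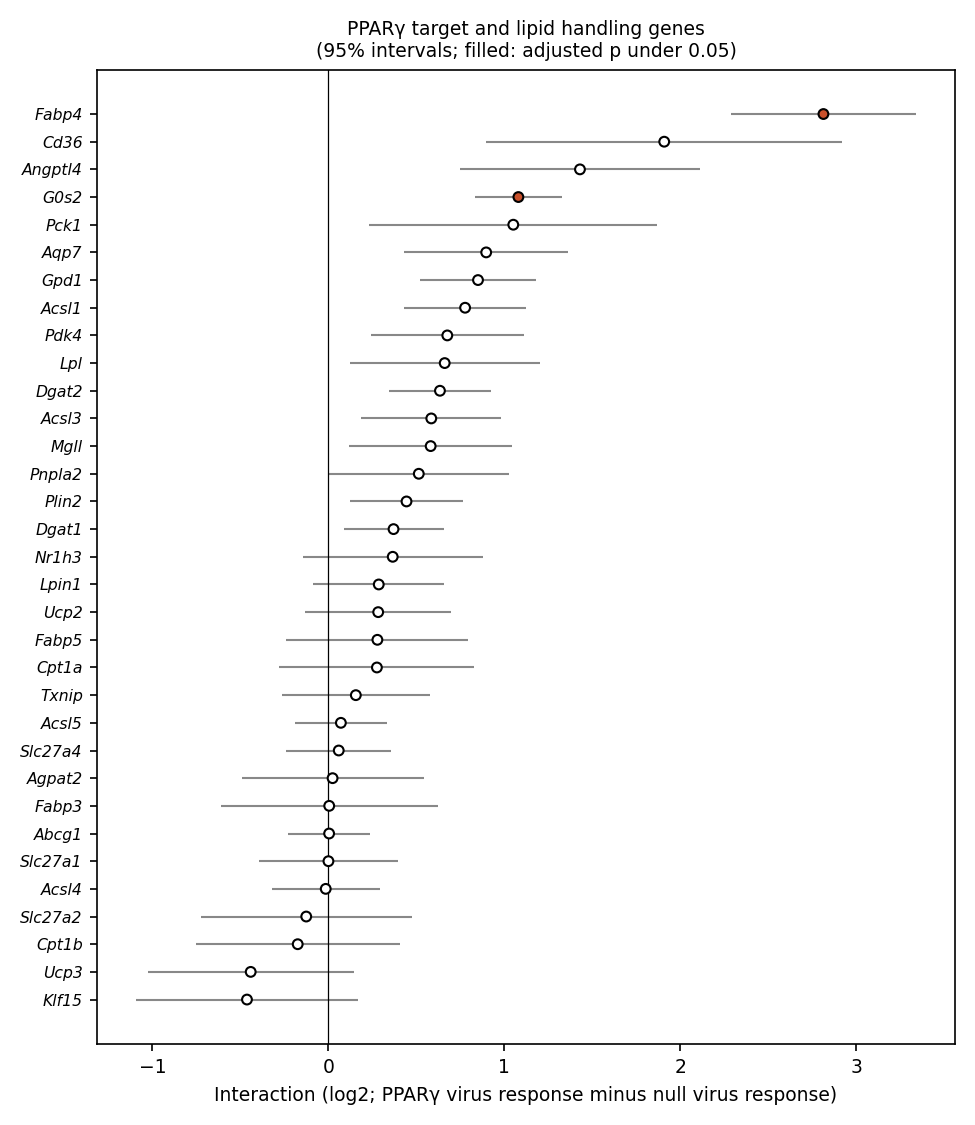
Interaction (log2) with its 95% interval for the 33 tested PPARγ target and lipid handling genes, ordered by size; filled points passed the test over all probe sets. Points lie right of 0 for 28 of 33 genes, and Fabp4 stands apart at 2.81.

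Genes of fatty acid oxidation and peroxisomes, which PPAR receptors control in liver and fat, had smaller interactions. None of the 29 tested passed the limma test, and 10 had a positive interaction at an unadjusted p under 0.05 and 0 a negative one, against 3.15% and 2.66% of all probe sets. The interaction was above 0 in 20 of 29 (69.0%, against 46.3% of all), with a median of 0.19. The mitochondrial enzyme gene Decr1 had the smallest p, with 0.50 ± 0.11 (SE, adjusted p = 0.377). It read 292, 295 and 371 in null virus vehicle and 311, 325 and 328 in the compound partners, then 372, 354, 390 and 437 in PPARγ virus vehicle and 517, 505, 575 and 628 in the compound partners, which stood above all other arrays. Pex11a, a peroxisome division gene, stood at 0.78 ± 0.20 and read 131 to 187 in PPARγ virus with compound against 48.8 to 98.2 in all other arrays. The thiolase gene Acaa2 stood at 0.40 ± 0.13, on a difference of 0.75 between viruses in vehicle.

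No interaction was called among the receptors and their partners. Of 20 PPAR, RXR and coregulator genes 9 were tested, 0 passed and 3 were above 0, with a median of -0.06. Nr1h3, the gene of the oxysterol receptor LXR alpha, stood at 0.37 ± 0.23, Ncoa1, a coactivator gene, stood at 0.27 ± 0.12 and Ncor1, a corepressor gene, at 0.22 ± 0.13, though its other probe set stood at -0.26. Fatty acid synthesis genes had a median of 0.02 with 0 of 13 passing. The elongase gene Elovl5 stood at 0.20 ± 0.09, the malic enzyme gene Me1 at 0.21 ± 0.11 (other probe set -0.25) and the desaturase gene Scd at -0.11 ± 0.20. Cholesterol synthesis genes had a median of -0.03 with 0 of 14 passing. The sterol sensor partner gene Insig1 stood at 0.28 ± 0.15, Idi1 at -0.32 ± 0.17 and Cyp51 at -0.18 ± 0.10, with 0.48 for its other probe set. The fatty acid synthesis list was above 0 in 10 of 13 members (76.9%) and the cholesterol list in 6 of 14 (42.9%), against 46.3% of all probe sets.

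In the glutathione and oxidative defence list 1 of 27 passed, Gsta4. The median was 0.03, and relatives of Gsta4 stood on either side of 0, with Mgst1 at 0.66 and Gsta1 at -0.50. In the insulin-like growth factor axis 1 of 11 passed, Igfbp1, and the median was 0.09. Igfbp4, another binding protein gene, stood at -0.55 ± 0.18 (adjusted p = 0.725), opposite to Igfbp1. Igf1 stood at 0.43 ± 0.25 by its brighter probe set. By the dimmer one it stood at 2.12 ± 0.47 (adjusted p = 0.377), reading 7.87 ± 3.20 (SD, n = 3) and 8.17 ± 1.12 (n = 3) under the null virus, 17.4 ± 17.5 (n = 4) in PPARγ virus vehicle and 78.8 ± 16.3 (n = 4) with both agents. That probe set entered the test through the doubly treated arrays. The probe sets of Igf1 disagreed in size.

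Lists of islet function, metabolism and growth had no called member. Members above 0 made up 33.3% for beta cell identity, 6 of 15 for secretory granules, 44.4% for endoplasmic reticulum stress, 71.4% for glycolysis (10 of 14), 51.7% for the citrate cycle and respiratory chain and 54.5% for the cell cycle, against 46.3% of all probe sets. For beta cell identity and glucose sensing the median was -0.06 with 0 of 15 passing, led by Nkx6-1 (-0.20), the sulfonylurea receptor gene Abcc8 (-0.25) and Neurod1 (-0.21). For secretory granule and exocytosis it was -0.02 with 0 of 15, led by the granule protein gene Scg2 (-0.23), Ptprn (0.22) and Vgf (-0.21). Endoplasmic reticulum stress genes had a median of -0.02 with 0 of 18, led by Xbp1 (0.21), Sel1l (0.32) and Calr (-0.20). Glycolysis genes had a median of 0.10 with 0 of 14, led by Eno2 (0.33), Tpi1 (0.24) and Ldha (0.31). Citrate cycle and respiratory chain genes had 0.00 with 0 of 29, led by Sdha (0.36), Atp5po (0.21) and Idh3a (-0.27), and cell cycle genes 0.00 with 0 of 22, led by the cell cycle inhibitor gene Cdkn1a (-0.27), Mki67 (0.22) and Ccnb2 (0.18).

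Inflammatory genes had a median of 0.08 with 0 of 18 passing. Those with the smallest p were the nitric oxide synthase gene Nos2 (1.13 ± 0.46 SE) and the chemokine genes Cxcl2 (0.82 ± 0.34) and Cxcl1 (0.46 ± 0.20), each with overlapping responses. Genes of interferon signalling and antigen presentation had a median of -0.10 with 0 of 22 passing. The immunoproteasome gene Psmb10 stood at 0.40 ± 0.12, lower by 0.47 with compound under the null virus and by 0.06 under the PPARγ virus, and the peptide transporter genes Tap2 and Tap1 at -0.63 ± 0.30 and 0.45 ± 0.22.

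**Figure D5:**
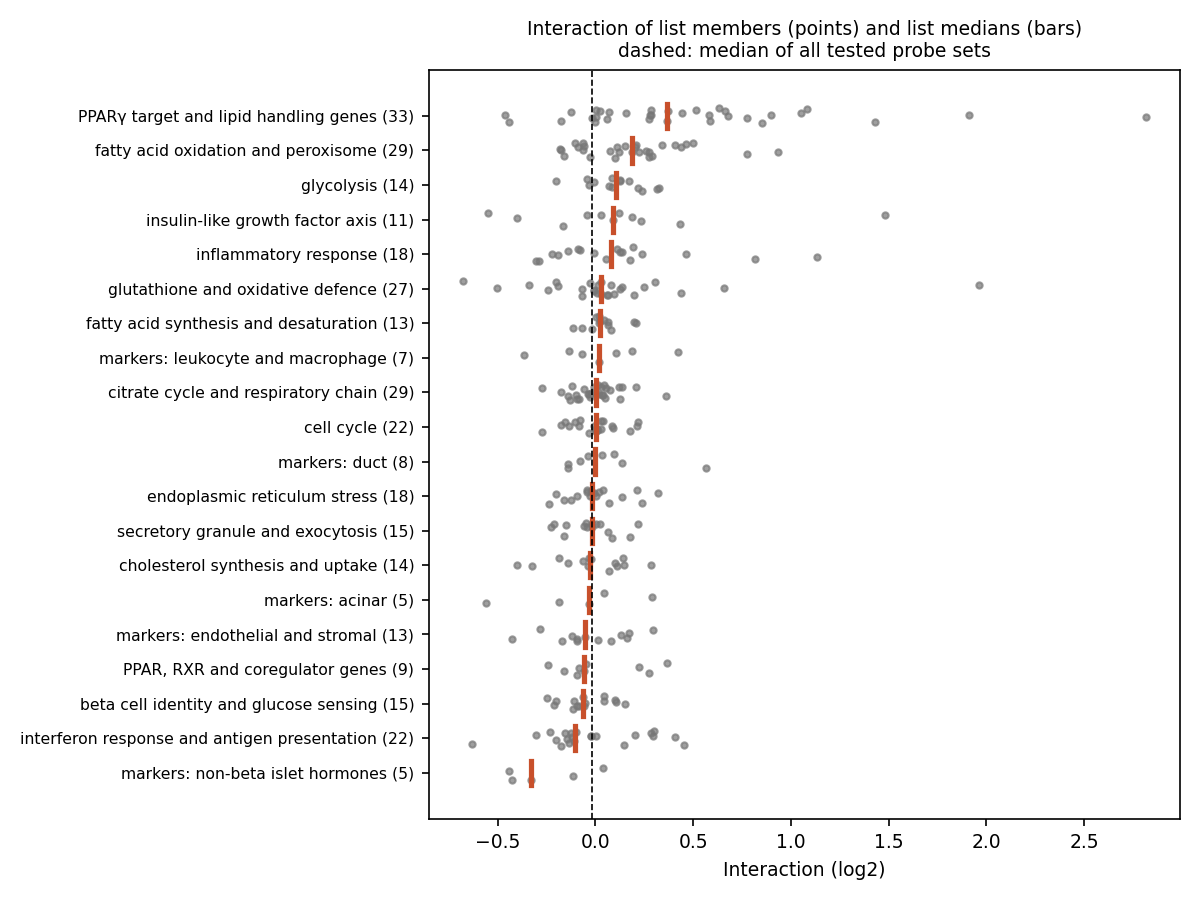
Interaction (log2) of each tested member (points) and the median (bars) of 20 gene and marker lists, with the number tested in brackets and the median of all tested probe sets dashed. Adipocyte markers are not shown, since Fabp4 (2.81) was their 1 tested member. Of the lists shown, PPARγ targets have the highest median at 0.37, followed by fatty acid oxidation at 0.19, and the non-beta hormones have the lowest at -0.33.

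Among markers of other cells, Fabp4 in the adipocyte list passed the test, and no marker of the other lists did. The adipocyte sum, which is Fabp4 alone, had an interaction of 2.80 (exact two-sided permutation p = 0.0571, and 0.343 adjusted over the 6 marker lists). The other summed levels had interactions of -0.35 for the 5 non-beta hormones, -0.0022 for 5 acinar, -0.05 for 8 duct, -0.01 for 13 endothelial and stromal and 0.08 for 7 leukocyte and macrophage markers. Their exact permutation p was 0.286 to 0.971, and 0.857 to 0.971 adjusted over the same 6 lists. With 7 pairs that test gives no p under 0.0571, so it could not call a shift in any sum. Of 16 acinar markers 11 and of 17 leukocyte markers 10 were not tested, and the leukocyte marker Ptprc read 1.4 to 6.5 and 12.2 to 29.2 by its probe sets. The hormone sum was lower with compound in 4 of 4 PPARγ virus pairs, most in pair 2, where it went from 998.5 to 498. Glucagon (Gcg) stood at -0.44 ± 0.24 (SE), Pyy at -0.43 ± 0.29 and Ppy at -0.33 ± 0.23. Among duct markers the keratin gene Krt19 stood at 0.57 ± 0.19, Krt8 at -0.14 and Epcam at -0.08. Among acinar markers Prss1 stood at -0.56 ± 0.22, Cela1 at 0.29 and Cpa3 at -0.18. Among endothelial and stromal markers Dcn stood at -0.43 ± 0.23, Sparc at 0.29 and Col3a1 at 0.13, and among leukocyte markers Cd14 at -0.36 ± 0.20, Laptm5 at 0.42 and Lyz2 at 0.19. The part of these markers in the called interactions was not tested beyond this.

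An interaction depends on the scale on which it is measured. On linear intensity it is the difference of differences, the added signal beyond the sum of separate effects, and 4 probe sets passed limma there, all positive. They were the probe set of Cd36l1 and Cd36 (840.1 intensity units, adjusted p = 0.00288), Gpd1 (260 ± 26.9 SE, adjusted p = 0.00450), G0s2 (559 ± 73.4, adjusted p = 0.0317) and the dimmer Igf1 probe set (61.2 ± 8.56, adjusted p = 0.0427), which was tested only because its doubly treated arrays were high. G0s2 was the 1 probe set called on both scales. Fabp4 added 513 units (adjusted p = 0.0685), with 4 unequal responses on this scale, and Gsta4 325 and Igfbp1 124.5 units (adjusted p = 0.224 each). All 5 probe sets called on the log2 scale were positive on the linear scale too.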

How the data were processed

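RNA of islet samples had been measured on a rat expression array and deposited as 16 columns, 2 of them identical. The deposited values are intensities, 1 per probe set on a linear scale; the authors had scaled each array, since the mean after trimming 2% at each end is 150.0 in every column. Which software and build were used is not stated in the labels. The number of arrays limits the precision. Symbols came from the platform annotation, updated by gene identifier: 12789 of 15923 probe sets name 1 gene, 312 several and 2822 none.

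Values were used as deposited. Probe sets above 39.3 (the 40th percentile) in at least 4 of 14 arrays were tested, without 57 controls. Per-pair log2(value + 4.6) differences went into limma (version 3.58.1, under R 4.3.3; moderated variances with an intensity trend); adjusted p-values are Benjamini-Hochberg over 10078 probe sets, threshold 0.05. The fit was tested on simulated data. Numbers paired arrays, since every same-number correlation of deviations was 0.445 or more; PPARγ virus replicates 1 and 3, and 2 and 4, also correlated, more weakly. The fit without the replicate block is an alternative.

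The members and lists were chosen with earlier results of these data known. Named are Pparg, the 10 smallest p in each direction among probe sets of 1 gene, up to 3 members of each list, and target genes with an unadjusted p under 0.05; a list gene is represented by its brightest tested probe set. Some genes stand in more than 1 list.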

Additional observations from a re-analysis of the deposited data

Results flagged for a closer look

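The response to GW347845 differed between the viruses by the test of the interaction for Fabp4 (2.81), G0s2 (1.08), Igfbp1 (1.48), Gsta4 (1.96) and the unnamed probe set (1.78).

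In 9 of 94 sets of 4 PPARγ virus pairs checked, 1 pair stood apart from the others by Dixon's criterion, which chance meets in about 1 in 20 groups. Pair 2 stood apart for Fabp4 (4.10, against 3.14 to 3.24), for the adipocyte marker sum, whose tested member is Fabp4 (4.24), for Gpd1 (1.28, against 0.78 to 0.80), for Gcg (-1.20, against -0.10 to -0.01) and for the sum of non-beta hormones (-1.003). Pair 1 stood apart for Med6 (-0.092, against -0.18 to -0.17) and Lyz2 (-0.36, against -0.01 to 0.02). Pair 3 stood apart for the acinar marker sum (-0.51) and the duct marker sum (0.060). Pair 2 thus had both the highest response of Fabp4 and Gpd1 and the lowest response of Gcg; whether these are related was not tested.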

How the results depend on the processing

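The 5 interaction calls became 2 with the random replicate block or with no filter and 0 with no replicate block, also with the doubly deposited array kept as null virus vehicle or as null virus compound (unadjusted p under 0.05 for 143, 204 and 153 probe sets). Under pseudocount 16, pseudocount 1, the stricter filter, quantile normalization, robust empirical Bayes, linear intensity and the beta-actin covariate it was 4 to 6. It was 2 to 4 when 1 pair was left out. The 40 calls for GW347845 under the PPARγ virus became 6 with no replicate block, 6 and 7 with the doubly deposited array kept as vehicle or compound, and 21 with no filter, and were 18 to 40 without 1 pair. The cause of these differences was not tested. Fabp4 ranged from 2.59 to 3.09 and G0s2 from 0.90 to 1.29 over 18 alternatives on the log2 scale. Signs turned for genes that had not passed: Pparg (-0.28 to 0.28) and Scd (-0.19 to 0.0068) without 1 pair, Pyy (0.033) and Ppy (0.30) with no replicate block and the doubly deposited array as null virus compound, Pyy on linear intensity (49.4), and Lyz2 (-0.051) with that array as null virus vehicle.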
